A study of Mus musculus with 4 samples.

Results

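Chromatin accessibility was examined around 9 genes of hypertrophic and osteogenic chondrocytes, Col10a1, Mef2c, Sp7, Alpl, Ibsp, Spp1, Bglap, Dlx5 and Dlx6, out of 21887 protein-coding genes. The genes were taken by name, and every peak inside one of them or within 50 kb of its ends was assigned to it. Peaks that overlapped between or within the 4 libraries were joined to a site, which gave 166 sites for the 9 genes out of 170558 sites in all. The windows of Dlx5 and Dlx6 shared 14 of these sites, which are listed under both genes and counted once in totals of sites. Counts of genes include both Dlx5 and Dlx6, so their shared region enters such counts under each.

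In the growth plate, chondrocytes leave the proliferating pool, enlarge, deposit a collagen X matrix and allow it to calcify, and part of this programme is shared with osteoblasts. Col10a1 encodes the collagen X chain, and Mef2c, Sp7, Dlx5 and Dlx6 encode transcription factors that act upstream of hypertrophy and bone formation. Alpl encodes the alkaline phosphatase that removes pyrophosphate, an inhibitor of mineral growth. Ibsp, Spp1 and Bglap encode the secreted mineral-binding proteins bone sialoprotein, osteopontin and osteocalcin. Articular chondrocytes of healthy cartilage normally hold this programme back.

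The promoters that set the genes apart are printed first, as RefSeq gives them for GRCm38.p6, from 250 bases before to 50 bases after the transcription start and in the direction of transcription. The table matched 6 of the 9 genes, and Sp7, Dlx5 and Dlx6 were not matched. The starts of Mef2c and the second starts of Alpl and Spp1 were matched but are not printed. The Ibsp promoter (chr5:104299037-104299336, plus strand) lay under a peak in both P0 libraries and in no P8 library. The Spp1 (chr5:104434861-104435160, plus strand) and Alpl (chr4:137796335-137796634, minus strand) promoters lay under a peak in 3 libraries and the Col10a1 promoter (chr10:34389731-34390030, plus strand) in another set of 3. The Bglap promoter (chr3:88384417-88384716, minus strand) lay under no peak. Capitals mark matches, on either strand, to TGTGGT (a RUNX core), TAATTA (a homeobox core), GGGCGG (a GC box), TGANTCA (AP-1) or the MEF2 motif.
Ibsp: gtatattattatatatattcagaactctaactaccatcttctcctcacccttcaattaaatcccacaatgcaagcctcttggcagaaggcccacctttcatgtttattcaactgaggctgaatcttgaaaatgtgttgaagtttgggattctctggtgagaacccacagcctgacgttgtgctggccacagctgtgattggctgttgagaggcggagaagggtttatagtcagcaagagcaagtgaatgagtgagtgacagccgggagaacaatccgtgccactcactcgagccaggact
Spp1: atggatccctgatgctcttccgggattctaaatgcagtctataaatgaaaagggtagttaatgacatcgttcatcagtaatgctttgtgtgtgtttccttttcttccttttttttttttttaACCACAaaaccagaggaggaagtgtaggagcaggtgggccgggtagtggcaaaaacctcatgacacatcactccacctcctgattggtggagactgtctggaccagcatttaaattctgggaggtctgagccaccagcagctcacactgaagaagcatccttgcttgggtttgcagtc
Alpl: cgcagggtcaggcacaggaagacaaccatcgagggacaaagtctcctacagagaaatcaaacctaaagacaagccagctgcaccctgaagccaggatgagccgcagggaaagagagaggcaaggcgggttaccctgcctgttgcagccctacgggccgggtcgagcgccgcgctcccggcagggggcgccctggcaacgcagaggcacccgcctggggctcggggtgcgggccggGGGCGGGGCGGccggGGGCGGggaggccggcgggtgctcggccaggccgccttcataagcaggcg
Col10a1: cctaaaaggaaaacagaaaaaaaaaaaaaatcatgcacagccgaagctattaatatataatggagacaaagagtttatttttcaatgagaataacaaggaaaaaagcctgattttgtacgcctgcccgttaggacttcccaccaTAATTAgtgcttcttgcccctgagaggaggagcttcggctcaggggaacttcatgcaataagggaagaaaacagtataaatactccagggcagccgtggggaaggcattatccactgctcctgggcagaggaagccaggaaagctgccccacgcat
Bglap: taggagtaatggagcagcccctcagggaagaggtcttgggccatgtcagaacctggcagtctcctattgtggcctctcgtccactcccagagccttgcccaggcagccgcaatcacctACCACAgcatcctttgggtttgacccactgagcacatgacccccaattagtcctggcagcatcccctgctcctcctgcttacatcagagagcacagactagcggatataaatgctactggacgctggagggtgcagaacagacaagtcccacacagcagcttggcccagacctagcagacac

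The Ibsp promoter held none of these letters. The Spp1 promoter held the RUNX core, read as ACCACA, at position -128 from the start, and the Bglap promoter held it at position -132. That core is present in 16.8% of 32851 RefSeq promoters of the same length. The Alpl promoter held 3 GC boxes between position -15 and the start itself, where 35.7% of all promoters hold at least 1 and the first 2 overlap in the printed sequence. The homeobox core lay at position -106 from the Col10a1 start and is found in 5.29% of promoters. AP-1 letters are found in 7.81% and MEF2 letters in 3.69%, and both were absent from all 5 windows. Among the starts not printed, those of Mef2c held the homeobox core, a GC box and AP-1 letters. The second Spp1 start held the homeobox core. Alpl was the most GC-rich of the 5 at 70.0%, against a median of 52.7% over all promoters, and Col10a1 was the poorest at 44.3%.

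The libraries came from chondrocytes of the knee cartilage of C57BL/6 mice at postnatal days 0 to 4. The P0 group held 2 libraries from primary cells kept in culture for less than 24 hours, and the P8 group held 2 libraries from cells at passage 8, replated at 24000 and harvested at 48000 cells per cm2. All cells were grown in serum-containing medium, the number of animals per library was not given in the sources used here, and p-values measure the spread between these libraries, which may be technical. Peak names separated the libraries without a replicate number, so the text calls them A and B within a passage. Open chromatin was mapped by ATAC-seq, in which the Tn5 transposase cuts accessible DNA, and fewer cells with an open site cannot be told apart from a less open site in each cell.

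Library depth differed between the passages. The background of the peak caller, a measure of depth, was 162 and 194 tags per 10 kb at P0 and 134 and 140 at P8, and the libraries held from 89610 to 145703 peaks. Among peaks called at the lowest background of their library, the weakest had a fold enrichment of 2.90 to 3.20 at P0 and 3.46 to 3.54 at P8. No start was given for 10 of the 24 marker genes: Col2a1, Sox9, Comp, Col1a1, Thy1, Csf1r, Adgre1, Pecam1, Cdh5 and Myod1. For these a peak within 500 bp of either gene end was counted as a start peak. On that count Col2a1, Acan and Sox9, which define chondrocytes, had a start peak in all 4 libraries. Over the 8 chondrocyte markers, 8 and 8 starts were under a peak at P0 and 6 and 6 at P8, with Matn1 and Comp held at P0 only. Of 5 fibroblast markers, 2 to 3 had a start peak at either passage, and of 4 endothelial markers 2 did in every library. Of 4 blood markers, 1 had a start peak in each P0 library and 0 in the P8 libraries, and of 3 muscle markers 2 did at P0 and 0 to 1 at P8. The fibroblast markers Pdgfra and Dpt, the blood markers Ptprc, Csf1r and Adgre1, the endothelial markers Pecam1 and Cdh5 and the muscle marker Myog had no start peak in any library, and the blood marker Cd68 and the muscle marker Des had one in the P0 libraries and in no P8 library. The part of other cells and of depth in the results was not tested.

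The starts of Ibsp, Spp1 and Alpl and the gene ends of Sp7 had peaks in fewer P8 than P0 libraries. Dlx5 and Dlx6 had a peak at a gene end in every library. A peak within 500 bp of a start was counted, or of a gene end for Sp7, Dlx5 and Dlx6. It was found for 8 and 8 of the 9 genes in the P0 libraries and for 5 and 6 in the P8 libraries. The share of all genes with such a peak was not counted for each library, so these counts have no matching background. At Ibsp, the start site (chr5:104299144-104299426) had a fold enrichment, the pileup at the summit over the local background, of 7.04 in P0 library A and 8.70 in P0 library B, and neither P8 library had a peak there. Over all protein-coding genes, with gene ends used where no start was given, 3.71% had a start peak in both P0 libraries and none at P8. The opposite pattern was found for 0.0411%. At Spp1, the start site (chr5:104434978-104435395) stood at 8.28 and 9.15 at P0 and at 5.73 in P8 library B, and no peak was called in P8 library A. At Alpl, the start site (chr4:137796277-137796588) stood at 7.33 and 7.21 at P0 and at 7.19 in P8 library B, again with none in P8 library A. Of Ibsp, Spp1 and Alpl, Ibsp was the one without a start peak in either P8 library. For Spp1 and Alpl the passages were separated by 1 library, P8 library A, which had the fewest peaks (89610).

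Col10a1 had peaks of low enrichment at its start. The site 22 bp upstream of it (chr10:34389804-34389959) had a fold enrichment of 3.51 and 3.89 at P0 and 4.91 in P8 library A, and P8 library B held instead a peak of 4.33 that ended 286 bp before the start (chr10:34389593-34389695). All 4 libraries therefore had a peak within 500 bp of the Col10a1 start, and all were below the median of their library, which ranged from 5.38 to 5.87. Mef2c had a peak in every library at the second of its 3 annotated starts (chr13:83523633-83524043), with fold enrichments of 7.66 and 9.03 at P0 and 8.82 and 10.5 at P8. The log2 difference there, P8 minus P0, was 0.48 ± 0.18 (SE, n = 2 and n = 2, adjusted p = 0.103 by limma), and no library had a peak at its other starts.

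For Sp7, Dlx5 and Dlx6 the table of genes carries no strand, so both gene ends were examined. Sp7, the factor also called osterix, had a peak at one end (chr15:102366762-102367168) of 4.88 and 3.84 at P0 and 4.80 in P8 library A, with none in P8 library B. Dlx5 had a peak in all libraries at one end (chr6:6881471-6882335), with 5.26 and 5.85 at P0 and 5.81 and 6.52 at P8, and the passages differed by 0.42 ± 0.17 (SE) on the log2 scale (n = 2 and n = 2, adjusted p = 0.136 by limma). Dlx6 had a pair of sites around one end, and the stronger in the P0 means (chr6:6862698-6862989) stood at 7.64 and 8.56 at P0 and 4.69 and 7.34 at P8. Over all genes, 57.1% had a peak at a start in all 4 libraries. Bglap, the osteocalcin gene, had no start peak in any library, as 33.7% of genes.

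**Figure D1:**
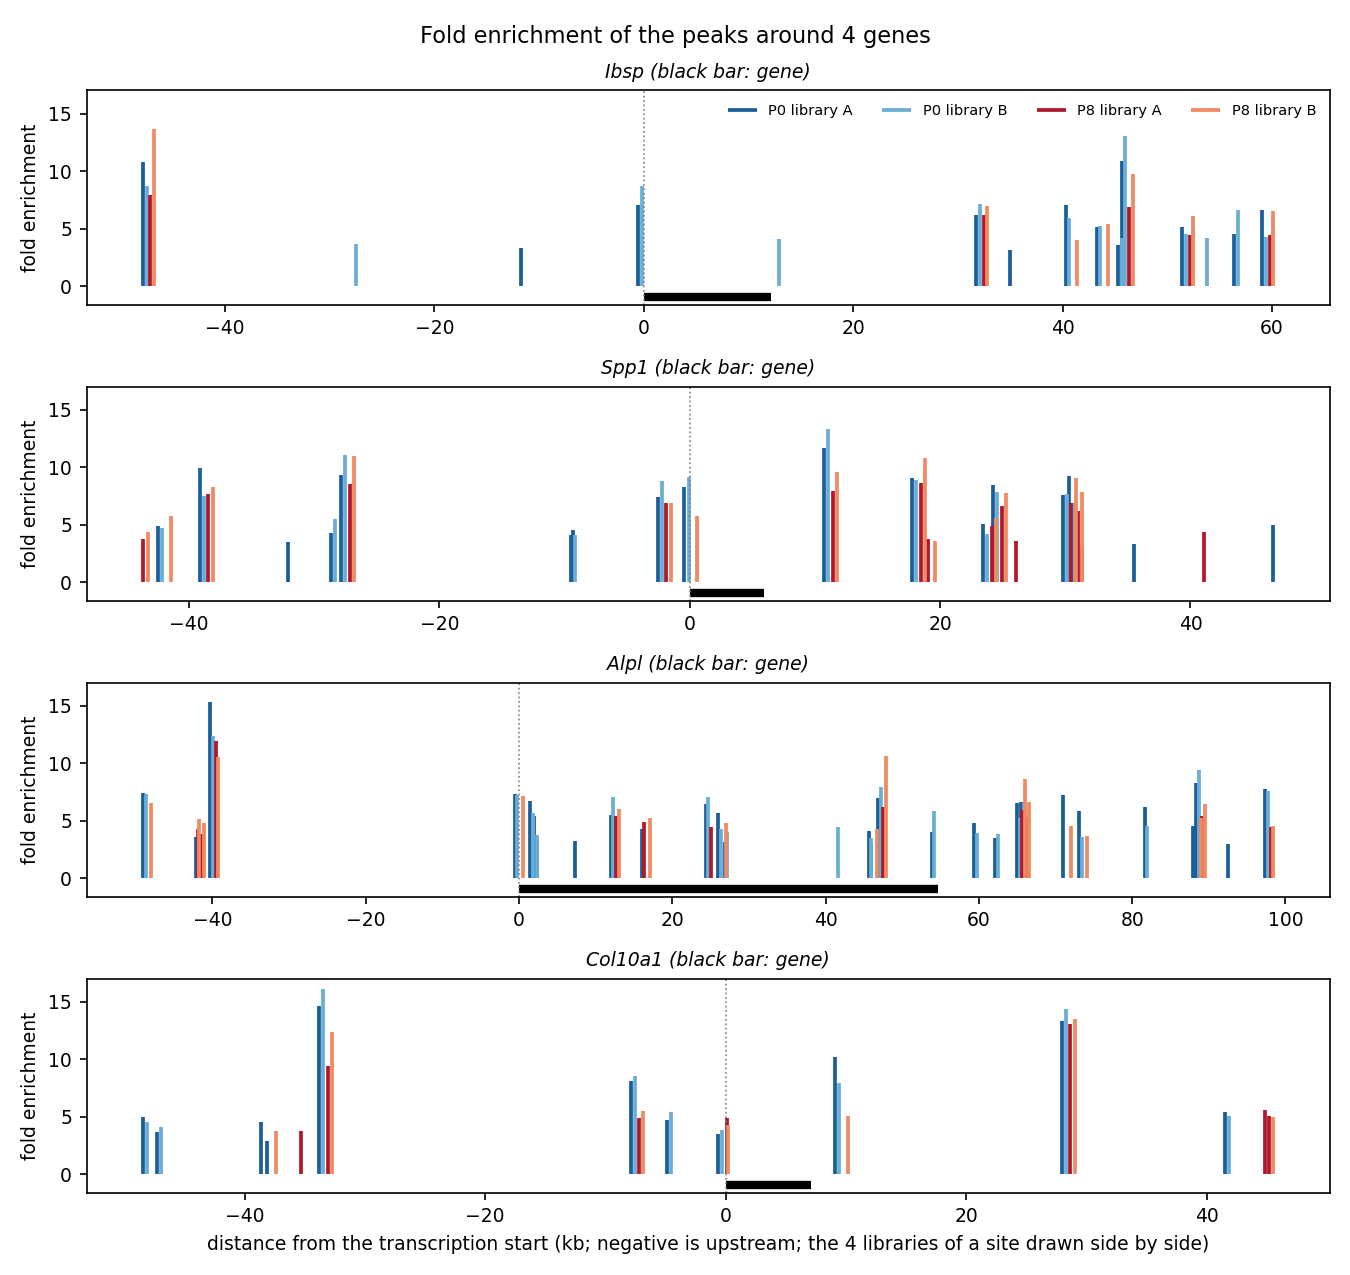
Fold enrichment (vertical axis) of the peaks around Ibsp, Spp1, Alpl and Col10a1 against the distance from the transcription start in kb (horizontal axis, negative upstream). Each vertical line is a site in 1 library, blue for P0 and red for P8, and a missing colour means that no peak was called. The Ibsp start carries P0 lines only (7.04 and 8.70), and the Spp1 start lacks the line of P8 library A.

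Over the 50 kb windows, the number of libraries that held a peak at a site was distributed much as over the genome. Of the 166 sites, 66 (39.8%) had a peak in all 4 libraries, against 32.4% of all sites. Peaks in both P0 libraries and in no P8 library were found at 28 sites (16.9%), against 17.1% of all sites. The reverse pattern was found at 2 sites (1.20%), against 1.82% of all sites. A further 20 sites (12.0%) had a peak in 3 libraries, 4 (2.41%) in 1 library of each passage and 46 (27.7%) in a single library, against 11.3%, 4.29% and 33.0% of all sites. After a filter on peaks that pass when rescored at the lowest of the 4 backgrounds, 27 of the 28 sites still had a peak in both P0 libraries. In the P0 libraries these 28 sites had median fold enrichments of 4.63 and 4.81, below the 7.92 and 7.95 of the member sites held by all libraries, and 8 of them exceeded 5 in both P0 libraries. Over all sites the P0 medians were 4.97 and 5.03 at sites held by both P0 libraries alone, against 8.28 and 8.09 at sites held by all libraries. The lower enrichment was thus general and not a trait of these genes. Within the 50 kb windows the share of such sites was also close to that of all sites.

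**Figure D2:**
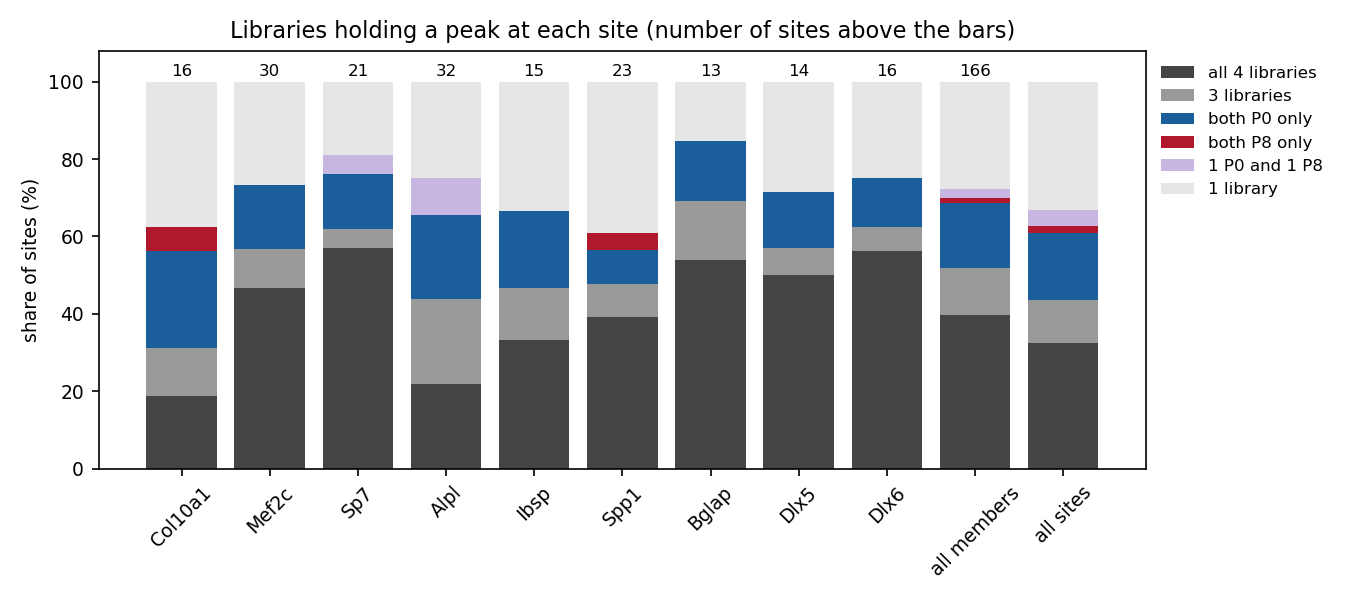
Share of sites in percent (vertical axis) by the libraries that held a peak, for each gene, for the 9 genes together and for all 170558 sites. Numbers above the bars count the sites of each gene, and blue marks sites held by both P0 libraries alone (16.9% for the 9 genes, 17.1% for all sites).

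By gene, Col10a1 had 4 of 16 sites in both P0 libraries alone, Alpl 7 of 32, Ibsp 3 of 15 and Mef2c 5 of 30. Sp7 had 3 of 21, Bglap 2 of 13, Spp1 2 of 23 and the shared Dlx5 and Dlx6 region 2. The 2 sites with peaks in the P8 libraries alone lay 44.8 kb downstream of the Col10a1 start (chr10:34434798-34435214, fold enrichments 5.09 and 4.99) and 43.8 kb upstream of Spp1 (chr5:104391207-104391319, 3.77 and 4.37). The first of these, as all 16 Col10a1 sites, is nearer to Nt5dc1, the gene that encloses Col10a1 in the annotation, than to Col10a1 itself. Results for sites with the member as nearest gene therefore hold no Col10a1 site.

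More DNA lay under peaks at P0 than at P8 around every one of the 9 genes. The length under peaks, summed over the 166 sites, amounted to 47753 bp in P0 library A and 39713 bp in P0 library B. It amounted to 24888 bp in P8 library A and 28700 bp in P8 library B. The ratio of the means was 1.63 ± 0.27 (SD propagated from n = 2 and n = 2, exact two-sided permutation p = 0.333, the smallest p that this design allows). Both P0 libraries lay above both P8 libraries in 9 of 9 genes, and the same held for 85.9% of 20365 protein-coding genes with a peak in their window. The reverse order was found for 0 of the 9 genes and 1.86% of all. The median ratio of those genes was 1.54, with quartiles of 1.34 and 1.83, so the 9 genes moved in the direction of most genes.

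Alpl had the highest ratio of the 9. Peaks near Alpl spanned 6906 and 5062 bp in the P0 libraries against 2002 and 2881 bp in the P8 libraries, a ratio of 2.45 ± 0.82 (SD, n = 2 and n = 2). Dlx5 followed with 4463 and 3463 bp at P0 against 1641 and 2172 at P8 (ratio 2.08 ± 0.55, SD, n = 2 and n = 2). Dlx6, with a largely shared window, had a ratio of 1.94 ± 0.44 (SD, n = 2 and n = 2). These were above the upper quartile of all genes, while the SDs of their ratios reached below it.

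For Mef2c the lengths were 8907 and 7391 bp at P0 against 4446 and 4831 at P8 (ratio 1.76 ± 0.25, SD, n = 2 and n = 2). Sp7 had 9145 and 7967 bp at P0 against 5219 and 6022 at P8 (ratio 1.52 ± 0.21, SD, n = 2 and n = 2). The other 4 genes lay between 1.37 ± 0.20 for Spp1 and 1.44 ± 0.30 for Bglap (SD, n = 2 and n = 2), with Ibsp at 1.40 ± 0.13 and Col10a1 at 1.39 ± 0.18. Neighbours in this order differed by less than the SD of the larger ratio.

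The number of peaks gave a smaller difference. The 9 genes had 145 and 130 peaks at P0 and 96 and 104 at P8, a ratio of 1.38 ± 0.13 (SD, n = 2 and n = 2, exact permutation p = 0.333). The P0 counts exceeded the P8 counts without overlap in 8 of 9 genes, against 48.2% of all protein-coding genes, and the reverse held for 0 of 9 against 4.02%. Spp1 was the exception, with 17 and 14 peaks at P0 and 17 and 15 at P8 (exact permutation p = 1). Ibsp had the highest ratio, with 12 and 14 peaks at P0 and 5 and 7 at P8 (2.17 ± 0.56, SD, n = 2 and n = 2).

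**Figure D3:**
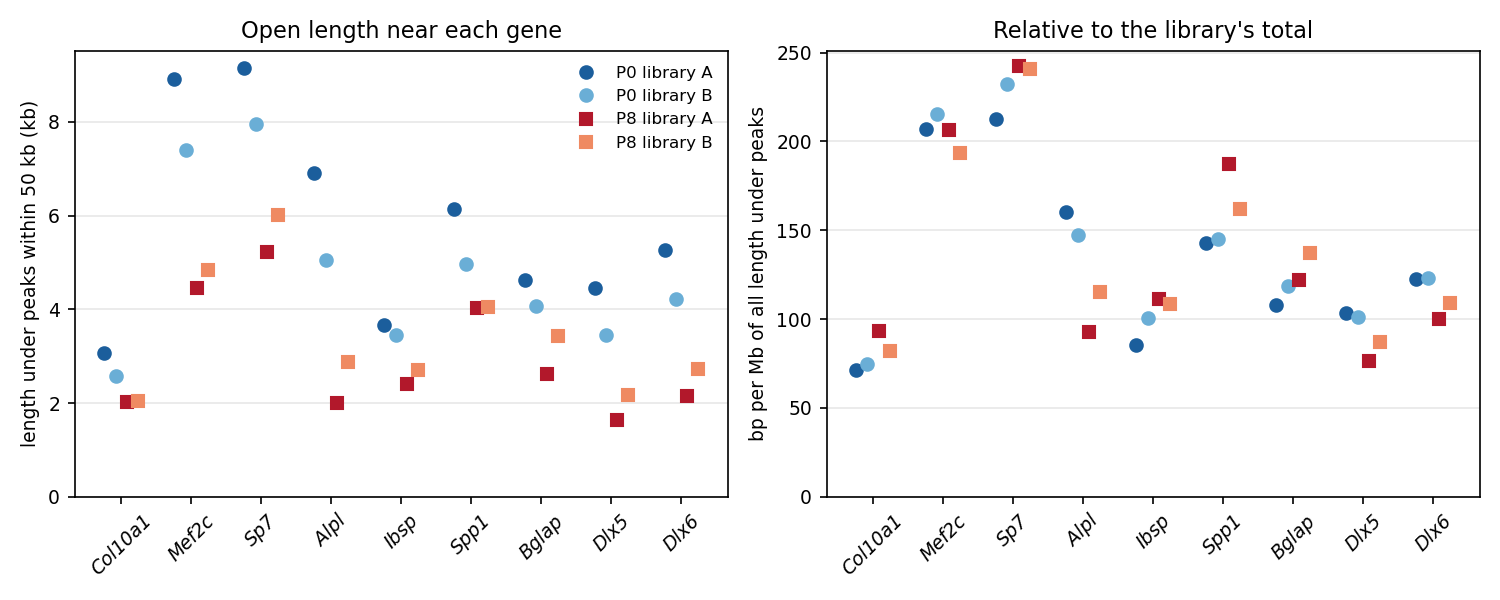
Left, length under peaks within 50 kb of each gene in kb; right, the same length in bp per Mb of all length under peaks in that library. Each symbol is 1 library (blue circles P0, red squares P8). On the left the P0 symbols lie above the P8 symbols for all 9 genes, and on the right for Alpl, Dlx5, Dlx6 and, narrowly, Mef2c.

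Set against the total length under peaks in each library, which fell from 34.6 to 43.4 Mb at P0 to 21.8 to 25.3 Mb at P8, the 9 genes together did not separate the passages. They held 1109 and 1158 bp per Mb at P0 and 1157 and 1149 bp per Mb at P8 (ratio 0.98 ± 0.03, SD, n = 2 and n = 2, exact permutation p = 1). By gene the direction then split. Alpl held 160 and 148 bp per Mb at P0 and 93.0 and 115 at P8, and both P0 libraries also lay above both P8 libraries for Mef2c, Dlx5 and Dlx6. For Mef2c the margin was narrow, with 206.9 bp per Mb in the lower P0 library and 206.6 in the higher P8 library. Both P8 libraries lay above both P0 libraries for Col10a1, Sp7, Ibsp, Spp1 and Bglap, with Spp1 at 143 and 145 bp per Mb at P0 and 187 and 162 at P8. Over all protein-coding genes, 24.3% had the first order and 42.2% the second, and the difference of 4 and 5 of 9 genes from these shares was not tested.

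Within 10 kb of the gene bodies, the ratios of most of the genes were higher than over the whole windows. The ratio of P0 to P8 was 2.21 for Col10a1, 1.65 for Mef2c, 2.03 for Sp7, 2.81 for Alpl, 2.35 for Spp1, 1.63 for Bglap, 2.85 for Dlx5 and 2.98 for Dlx6. Their median was 2.28, and that of all protein-coding genes at this distance was 1.51, with quartiles of 1.27 and 1.90. Ibsp had 282 and 310 bp under peaks within 10 kb at P0 and none in either P8 library. Both P0 libraries lay above both P8 libraries in 9 of 9 genes, against 81.1% of protein-coding genes. As a share of all length under peaks, a combination chosen after the data were seen, the 9 genes had a ratio of 1.26 within 10 kb, and both P0 libraries lay above both P8 libraries in 7 of 9 genes, with Mef2c and Bglap overlapping, against 24.8% of protein-coding genes. Spp1 held 31.3 and 29.4 bp per Mb at P0 and 18.9 and 23.8 at P8 within 10 kb, the reverse of its order within 50 kb. Dlx5 held 54.9 and 52.0 bp per Mb at P0 and 27.3 and 34.7 at P8 within 10 kb, the order it had in the wide window.

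Of the 74 sites within 10 kb of these genes, 18 (24.3%) had peaks in both P0 libraries alone and 0 had peaks in both P8 libraries alone. Over all sites within 10 kb of a protein-coding gene the shares were 16.6% and 1.5%. The difference between these shares was not tested.

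Of the sites with a peak in all 4 libraries, 66 lay near the 9 genes, and 4 of these differed between the passages. The 66 sites were compared with limma on log2 fold enrichment, with the median of each library set equal and p-values adjusted over 55294 sites. Of the 66, 1 site had the higher value at P0 and 3 sites had it at P8, against 3.29% and 5.87% of all sites tested. At an unadjusted p under 0.05, 14 of the 66 sites (21.2%) differed in either direction, against 26.1% of all. The median log2 difference, P8 minus P0, was 0.13 over the 66 sites and 0.07 over all sites tested. Before scaling, fold enrichment was lower at P8 by a median of -0.27 (log2) over all sites, so differences are relative to that shift. Without scaling, 3 of the 66 passed with the higher value at P0 and 1 with the higher value at P8, against 9.23% and 0.901% of all sites, and the members' median was -0.14.

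The site higher at P0 lay 44.8 kb upstream of Mef2c (chr13:83458845-83459273), with Mef2c as the nearest gene. Its fold enrichments were 10.2 and 10.7 at P0 and 5.38 and 6.28 at P8, and the groups did not overlap. The log2 difference was -0.58 ± 0.17 (SE, n = 2 and n = 2, limma adjusted p = 0.0477), and -0.85 without scaling (adjusted p = 0.0217). The limma call was lost with quantile normalization (-0.62, adjusted p = 0.0611), with pileup over background without the pseudocount (-0.50, 0.118) and with imputed sites of at least 2 libraries (-0.58, 0.0624). With 1 library left out the difference was -0.66 to -0.51, and the adjusted p was 0.183 without P0 library A, 0.211 without P0 library B and 0.173 without P8 library A.

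The site with the smallest adjusted p was higher at P8 and lay 24.2 kb from Sp7 (chr15:102391239-102391454), nearer to Sp1 than to Sp7. Its fold enrichments were 6.21 and 5.95 at P0 and 8.90 and 9.42 at P8, so both P8 libraries stood above both P0 libraries on the deposited scale too. The log2 difference was 0.86 ± 0.17 (SE, n = 2 and n = 2, limma adjusted p = 0.0115) and 0.59 without scaling (adjusted p = 0.0487). The difference was 0.87 without P0 library A (adjusted p = 0.118) and 0.80 without P0 library B (0.103). Quantile normalization (0.81, adjusted p = 0.0341), pileup over background without the pseudocount (0.82, 0.0334) and imputed sites of at least 2 libraries (0.86, 0.00936) kept the limma call.

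A second site near Sp7, 10.8 kb from its end (chr15:102377860-102378185), stood at 3.67 and 3.95 at P0 and 4.42 and 5.28 at P8. Its log2 difference was 0.61 ± 0.17 (SE, n = 2 and n = 2, limma adjusted p = 0.0404) and 0.34 without scaling (adjusted p = 0.204). The limma call was also lost with quantile normalization (0.38, adjusted p = 0.208), with pileup over background without the pseudocount (0.57, 0.0842) and with imputed sites of at least 2 libraries (0.61, 0.0511). The difference was 0.54 without P0 library A (adjusted p = 0.243), 0.63 without P0 library B (0.179) and 0.52 without P8 library B (0.137).

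The remaining call lay 27.6 kb from Dlx5 (chr6:6909688-6909898), with fold enrichments of 4.55 and 4.58 at P0 and 5.44 and 8.08 at P8. P8 library B stood well above the other 3 libraries. The log2 difference was 0.81 ± 0.19 (SE, n = 2 and n = 2, limma adjusted p = 0.0204) and 0.54 without scaling (adjusted p = 0.118). The limma call was also lost with quantile normalization (0.68, adjusted p = 0.0791) and with pileup over background without the pseudocount (0.82, 0.0527). The difference was 0.78 without P0 library A (adjusted p = 0.167), 0.78 without P0 library B (0.131) and 0.56 without P8 library B (0.103).

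**Figure D4:**
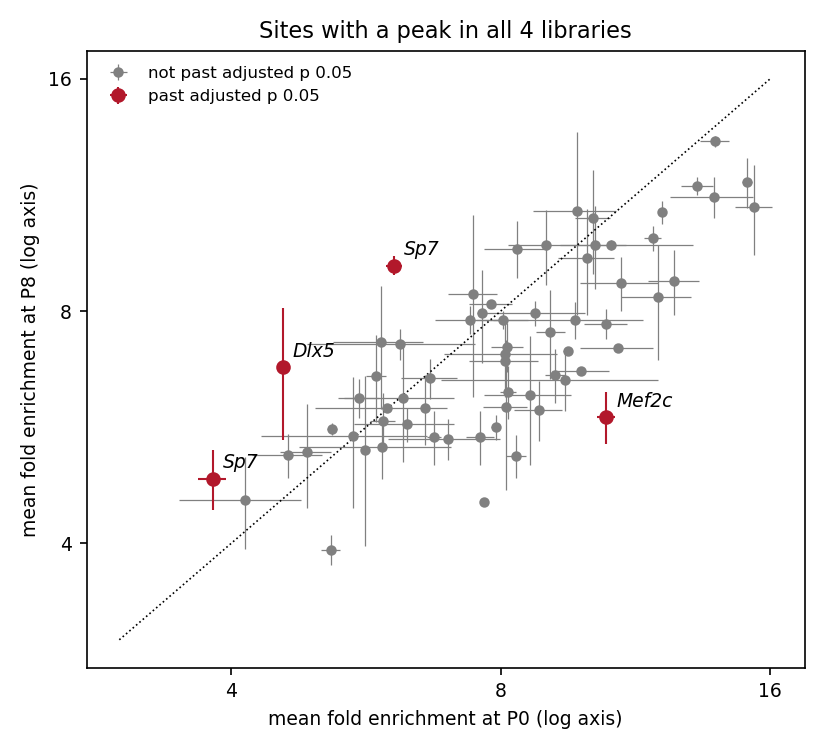
Mean fold enrichment at P8 (vertical) against that at P0 (horizontal), both on log axes, for the 66 sites near the 9 genes with a peak in all 4 libraries. Lines span the 2 libraries of each passage, the dotted line marks equal values, and red marks the 4 sites past an adjusted p of 0.05, of which the one near Mef2c lies below the dotted line and the other 3 above it.

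Without P0 library A no site in the whole table passed (0 of 55749, with 10022 at an unadjusted p under 0.05), and among the 66 member sites then tested 0 passed and 8 had an unadjusted p under 0.05. A pair of further sites passed without scaling alone and were chosen after their values were seen. One lay 7.2 kb upstream of Col10a1 (chr10:34382376-34382806), with 8.11 and 8.54 at P0 and 4.86 and 5.52 at P8 (limma adjusted p = 0.138 with scaling and 0.0362 without). The other lay in the Alpl window nearer to Rap1gap (chr4:137698060-137698947), with 7.74 and 7.59 at P0 and 4.49 and 4.57 at P8 (limma adjusted p = 0.0857 with scaling and 0.0249 without).

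The strongest sites of the windows were open at both passages. At Col10a1 the highest mean fold enrichment lay 28.1 kb downstream of the start (chr10:34418082-34418898), with 13.4 and 14.4 at P0 and 13.0 and 13.5 at P8. A site 33.0 kb upstream of it (chr10:34356443-34356941) stood at 14.6 and 16.1 at P0 and 9.45 and 12.4 at P8 (limma adjusted p = 0.433). Neither is at the gene itself, and the sites inside 10 kb had lower values. P0 peaks with no P8 counterpart were found 4.2 kb upstream of the Col10a1 start (chr10:34385407-34385803, 4.71 and 5.42), 42.0 kb downstream (chr10:34431972-34432056, 5.38 and 5.03) and 47.8 kb upstream (chr10:34341959-34342146, 4.97 and 4.58).

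Mef2c, a MADS box factor needed for hypertrophy, had 30 sites over its long gene. The strongest lay inside the gene, 8.4 kb from a start (chr13:83532019-83532393), with 14.9 and 15.3 at P0 and 10.9 and 12.6 at P8 (limma adjusted p = 0.770 with scaling and 0.171 without). The 3 strongest sites held by both P0 libraries alone also lay inside the gene. They had fold enrichments of 5.97 and 7.78 (chr13:83649686-83650092), 6.62 and 6.41 (chr13:83616017-83616273) and 7.43 and 4.58 (chr13:83654918-83655126). All 3 lay more than 40 kb from the nearest annotated start.

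Sp7 had 21 sites, and 12 of them were held by all 4 libraries. The strongest was 32.3 kb away and nearer to Sp1 (chr15:102399366-102400193), with 10.7 and 9.27 at P0 and 10.8 and 7.90 at P8. Sites held by both P0 libraries alone lay 14.7 kb away near Aaas (chr15:102341722-102341880, 7.04 and 5.95), 3.7 kb away (chr15:102370733-102371100, 7.32 and 5.55) and 40.1 kb away near Espl1 (chr15:102316305-102316504, 5.80 and 5.03). Of these the site at 3.7 kb has Sp7 as its nearest gene.

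Alpl had the most sites, 32, of which 7 were held by all 4 libraries. The strongest lay 39.6 kb upstream, nearer to Ece1 (chr4:137835946-137836267), with 15.3 and 12.4 at P0 and 11.9 and 10.6 at P8. Inside the gene, 1.8 kb from the start (chr4:137794277-137794564), both P0 libraries had a peak (6.69 and 5.68) and no P8 library did. The same pattern was seen 52.2 kb from a start near Rap1gap (chr4:137714109-137714309, 6.21 and 4.58) and near the end of the gene (chr4:137741920-137742091, 4.01 and 5.87). Alpl had 28 and 22 peaks at P0 and 13 and 17 at P8, and P8 library A had the fewest.

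Ibsp and Spp1 lie in one cluster of mineral matrix genes with Dmp1 and Mepe. The Ibsp start site described above was the single peak of P0 library A within 10 kb of the gene, and P0 library B had another weak one (fold enrichment 4.12). The strongest site of the window was 47.1 kb upstream near Dmp1 (chr5:104251801-104252190), with 10.8 and 8.70 at P0 and 7.91 and 13.6 at P8. A second strong site, 46.0 kb downstream near Mepe (chr5:104345290-104345630), stood at 10.9 and 13.0 at P0 and 6.92 and 9.75 at P8 (limma adjusted p = 0.399). Other sites held by both P0 libraries alone were also near Mepe (chr5:104356064-104356262, 4.51 and 6.65, and chr5:104345015-104345160, 3.59 and 4.18).

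At Spp1 the strongest site lay 10.0 kb from a start on the downstream side (chr5:104446205-104446519), with 11.7 and 13.3 at P0 and 7.91 and 9.60 at P8 (limma adjusted p = 0.401 with scaling and 0.0880 without). A site 1.9 kb upstream of the start (chr5:104432863-104433254) was held by all 4 libraries, with 7.37 and 8.79 at P0 and 6.90 and 6.87 at P8, so the nearest upstream site was kept in P8 library A where the start site was not. Sites held by both P0 libraries alone lay 28.0 kb (chr5:104406801-104407077, 4.30 and 5.51) and 8.9 kb upstream (chr5:104426035-104426239, 4.14 and 4.12).

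Bglap is one of several near-identical osteocalcin copies, and reads from Bglap, Bglap2 and Bglap3 may not be placed with certainty. No library had a peak at a start of Bglap or Bglap3, and both P0 libraries had one next to Bglap2 (chr3:88378763-88378915, 3.97 and 5.80) that no P8 library had. A site 2.2 kb from the Bglap start on the downstream side (chr3:88382037-88382263) stood at 7.65 and 5.74 at P0 and 6.74 in P8 library B. The strongest site of the window was 40.5 kb upstream near Slc25a44 (chr3:88424971-88425424), with 12.7 and 13.8 at P0 and 11.9 and 11.3 at P8, and the other site held by both P0 libraries alone lay near Paqr6 (chr3:88367178-88367349, 4.11 and 3.49).

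Dlx5 and Dlx6, a homeobox pair transcribed in skeletal cells, share most of their region. The strongest site of the Dlx6 window lay 44.8 kb from the gene (chr6:6817990-6818573), with 12.0 and 12.2 at P0 and 10.4 and 11.1 at P8, and that of the Dlx5 window was at chr6:6830267-6830866, with 12.1 and 11.6 at P0 and 9.57 and 10.3 at P8. Neither differed between the passages with scaling (limma adjusted p = 0.753 and 0.957). The 2 sites held by both P0 libraries alone lay inside Dlx5 and were weak, with 3.43 and 2.99 (chr6:6879439-6879646) and 3.10 and 3.08 (chr6:6880052-6880221).

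A list of 25 other genes of hypertrophy, osteogenic control and mineralization was counted in the same way. Its sites were not all separate from those above, since sites near Mepe and Dmp1 also lay in the Ibsp window. Of the 553 sites of the list, 152 were tested. Of these, 2 passed with the higher value at P0 and 11 with the higher value at P8, against 3.29% and 5.87% of all sites tested. Peaks in both P0 libraries alone were found at 99 sites and in both P8 libraries alone at 8, against 17.1% and 1.82% of all sites. The length under peaks was greater in both P0 libraries than in both P8 libraries for 22 genes, against 85.9% of all protein-coding genes. The passages overlapped for Dmp1 and Dspp. For Mmp13, the collagenase of hypertrophic cartilage, the length was greater at P8, an order found for 1.86% of all. The median ratio of the list was 1.73, against 1.54 over all protein-coding genes, and the ratios of Ihh and Foxa2 were the highest. Ihh, the signal of prehypertrophic cells, had 2228 and 1925 bp at P0 against 332 and 292 at P8 (ratio 6.66), and Foxa2, a factor of hypertrophic chondrocytes, had 4029 and 3856 bp at P0 against 751 and 764 at P8 (ratio 5.20). Neither Ihh nor Foxa2 had a start peak at P8, as was seen for Ibsp, while Runx2, the main osteogenic regulator, had one in all 4 libraries (ratio 2.08). The 8 chondrocyte markers had a median ratio of 2.52, above the 1.52 of the 9 genes.

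By length under peaks over the 4 libraries, the genes of the list most like a member were Dlx3 for Dlx6, with a mean absolute log2 difference of 0.065, and Ifitm5 for Bglap, with 0.076. Col10a1 and Ibsp were each nearest to Atf4 at 0.203 and 0.208, and had the least similar partners of the 9.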

How the data were processed

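ATAC-seq libraries of P0 and P8 mouse chondrocytes (2 each) were sequenced as paired-end reads, aligned with Bowtie2 to mm10, and peaks were called with MACS2 in each library separately, per the submitters' processing notes and the study's methods, with versions not given in the sources used here. The deposited peak lists give the signal at the summit (pileup in tags, not depth-scaled), the fold enrichment (a ratio of pileup to local background) and the −log10 p-value and q-value of each peak. One heading of each deposited list was damaged, and its column was identified as −log10 p in the P0 list and −log10 q in the P8 list from the values. The authors' DiffBind comparison (fold changes, p-values and FDR) was not used.

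Peaks on chromosomes 1 to 19, X and Y (450430 of 455071) were merged into sites with an overlap of at least 1 bp, checked against bedtools 2.31.1. A site with several peaks in a library took the highest fold enrichment. Gene positions and starts came from RefSeq GRCm38.p6. Sites with a peak in all 4 libraries were compared with limma 3.58.1 (R 4.3.3) on log2 fold enrichment with medians set equal and Benjamini-Hochberg adjustment at 0.05, and lengths and peak numbers with exact two-sided permutation tests. Fold enrichment is measured at called summits, so sites missing in a library were described and not tested. On simulated data with 200 changed sites among 55294, 86% of log2 changes of 2 and 0% of changes of 1 were recovered. The fit of P8 against P0 called 5060 sites, many more than were changed in the simulation. Its calls included smaller log2 differences, such as -0.58 near Mef2c and 0.86 near Sp7. The simulated shares therefore do not give the power of that fit, which was not measured, and small changes could still be missed. Scripts ran under scipy 1.17.1, pandas 2.3.3 and Python 3.11.15.

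The 9 genes, the list of 25 genes and the cell type markers were chosen with earlier results of these data known. Sites were named by rule: the strongest, the one at the start, those past the threshold, and up to 3 held by both libraries of one passage alone. The columns of per-library values left unused numbered 0.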

Additional observations from a re-analysis of the deposited data

How the results depend on the processing

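No paired analysis was possible because the peak lists carry no replicate number. With 2 libraries per passage the smallest exact p is 0.333. Depth was lower at P8 (134 and 140 tags per 10 kb against 162 and 194), which limits the calling of weak sites there.

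Calls depended on the processing. Sites higher at P0 and at P8 numbered 5104 and 498 over all sites and 3 and 1 near the 9 genes without scaling, 1092 and 888 (0 and 1) with quantile normalization, 1149 and 1282 (0 and 1) with pileup over background without the pseudocount, and 11629 and 8681 (8 and 6) with sites of at least 2 libraries and missing values set to the 1st percentile. At an adjusted p of 0.1 they numbered 3185 and 5685, with 2 member sites higher at P0. Leaving out 1 library gave 0 to 2933 and 0 to 3527 over all sites, and 0 to 1 and 0 to 7 near the 9 genes.

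Sites held by both P0 libraries alone numbered 18 of 74 within 10 kb (16.6% of all sites within 10 kb of a gene), 16 of 88 with the member as nearest gene (17.1% of all sites) and 44 of 166 with a reciprocal overlap of 50% (22.5% of all sites), and 32 to 53 with 1 library left out, where 20.6 to 36.7% of all sites had the pattern. Those of P8 numbered 0 of 74, 1 of 88 and 1 of 166, 5 of 251 within 100 kb, and 2 to 12 with 1 library left out, where 2.22 to 7.43% of all sites had the pattern.

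The ratio of length under peaks was 2.09 within 10 kb, 1.96 with the member as nearest gene and 1.48 to 1.78 with 1 library left out and 1.26 as a share of all length within 10 kb (chosen after seeing the data), and as a share of all length within 50 kb it was 0.98, with 0.84 for Col10a1, 0.92 for Sp7, 0.85 for Ibsp, 0.82 for Spp1 and 0.87 for Bglap. The ratio of peak numbers was 1.68 within 10 kb, 1.53 with the member as nearest gene and 1.30 to 1.45 with 1 library left out. For Spp1 it was 1.5 within 10 kb, 1.26 within 100 kb and 1.27 with the member as nearest gene, and 0.88 to 1.06 with 1 library left out. The causes were not tested.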
